A study of Mus musculus with 54 samples.

Results

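Mouse embryonic stem cells with 1 deleted and 1 floxed allele of Ezh2 (het) were compared with the line they came from (parental), both undifferentiated. The comparison rests on 6 of the 54 samples of the series, the 3 het and the 3 parental libraries of undifferentiated cells, chosen by their labels, and on all genes of the deposited count table. Of 55401 genes in that table, 15830 passed the filter on low counts and were tested. Het cells carried the genotype that the design text writes as Ezh2 fl/∆, and the parental libraries are named flfl, for both alleles floxed. Neither line carried added EZH2. The design text names removal of 2i/LIF as the start of differentiation, so the undifferentiated cells were in 2i/LIF, which inhibits ERK and GSK3 signalling and adds leukaemia inhibitory factor. In the rest of the series, the het line carried added wild-type EZH2 (WT) or an EZH2 variant, and the same lines were also treated with all-trans retinoic acid (ATRA).

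How many clones stood behind either line, how the allele was deleted and whether replicates were separate cultures was not given in the sources used here. The loss of the allele and any other difference between the het and the parental line cannot be told apart in this comparison. The p-values rest on the spread between replicate libraries of a line, pooled over all 24 undifferentiated libraries of 8 lines. This spread may be technical.

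EZH2 is the main methyltransferase of Polycomb repressive complex 2 (PRC2), which places methyl groups on lysine 27 of histone H3 together with EED and SUZ12. The mark keeps developmental regulators such as Hox genes low in stem cells, and PRC1, which reads it through CBX proteins, adds a second layer of repression. In mouse embryos PRC2 also acts at imprinted genes, which are expressed from the maternal or the paternal chromosome alone.

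The het libraries held 19473799 to 23419441 counts and the parental libraries 15361598 to 21712766 counts. Mitochondrial genes took 1.63% to 1.95% of the counts in het and 1.63% to 1.85% in parental libraries. The GC content of genes weighed differently on single libraries, and this difference was as large within a line as between the lines (Spearman correlation of a library's deviations with GC from 0.331 to 0.471 in het and from 0.208 to 0.568 in parental cells). Stem cell markers stood at high levels in both lines. Pou5f1 was at 750 to 833 CPM (CPM stands for the count scaled to 1000000 counts per library, here after TMM normalisation) in het and 698 to 847 CPM in parental libraries, Sox2 at 300 to 345 CPM in het and 271 to 304 CPM in parental libraries, and Nanog at 716 to 825 CPM in het and 711 to 748 CPM in parental libraries. Of the fibroblast and feeder cell markers, Dcn, Lum, Postn, Col3a1, Prrx1, Twist2 and S100a4, 7 of 20 listed, had no count in any of the 6 libraries. Others were present, led by Fn1 (2105 to 2591 CPM in het and 2278 to 2348 CPM in parental libraries), and the summed level of the list was 2228 to 2707 CPM in het and 2376 to 2445 CPM in parental libraries. Twist1 was at 0.945 to 1.18 CPM in het and 1.52 to 2.43 CPM in parental libraries, while Loxl1 averaged 0.972 CPM in het and 1.74 CPM in parental libraries. Neither passed the test, and these 3 genes were chosen after their values were seen.

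Ezh2 itself was close to its parental level. It had 274, 269 and 264 CPM in the het libraries and 287, 293 and 292 CPM in the parental libraries. Every het library was thus below every parental library, and 20.5% of all genes tested lacked overlap in either direction. The difference of -0.11 on the log2 scale (standard error 0.07) did not pass the test (adjusted p = 0.562). Counts per gene do not separate reads of the floxed part from the rest, so they do not check the deletion. Each of the 6 core PRC2 genes had a negative log2 fold change, between -0.20 and -0.07, and none passed the test. With a GC correction 2 of the 6 were called lower, and 3 when a replicate block was added to it. Suz12, the subunit that holds the complex together, had 303, 268 and 277 CPM in het libraries, against 298, 353 and 324 CPM in parental libraries. Its difference of -0.20 had an adjusted p of 0.545, and of 0.0143 with a GC correction. Eed, which binds the methylated histone, had a log2 fold change of -0.07 (adjusted p = 0.704), and Ezh1, the second methyltransferase, one of -0.10 (adjusted p = 0.718). None of the 8 accessory PRC2 genes tested and none of the 14 genes for H3K27 demethylases and trithorax proteins passed the test.

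With a Benjamini-Hochberg adjusted p under 0.05, 544 genes differed between the lines (3.44% of those tested). Of these, 186 were higher in het (1.17%) and 358 lower (2.26%). The rises were small, with 15 genes at least 2-fold higher (0.0948%), while 103 genes were at least 2-fold lower (0.651%). The median size of a called change was 0.43 on the log2 scale for higher genes and 0.70 for lower genes. Higher genes were also the more abundant ones, with a median of 28.8 CPM against 8.95 CPM for lower genes and 15.1 CPM for all genes tested. Among all genes tested, 20.5% showed no overlap between the 3 het and the 3 parental libraries, and 543 of the 544 called genes were among them. The count of called genes was 324 without het replicate 3, 360 without parental replicate 2 and 354 without parental replicate 3. It was 992 with a GC correction and 845 with only the 6 libraries in the fit.

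**Figure D1:**
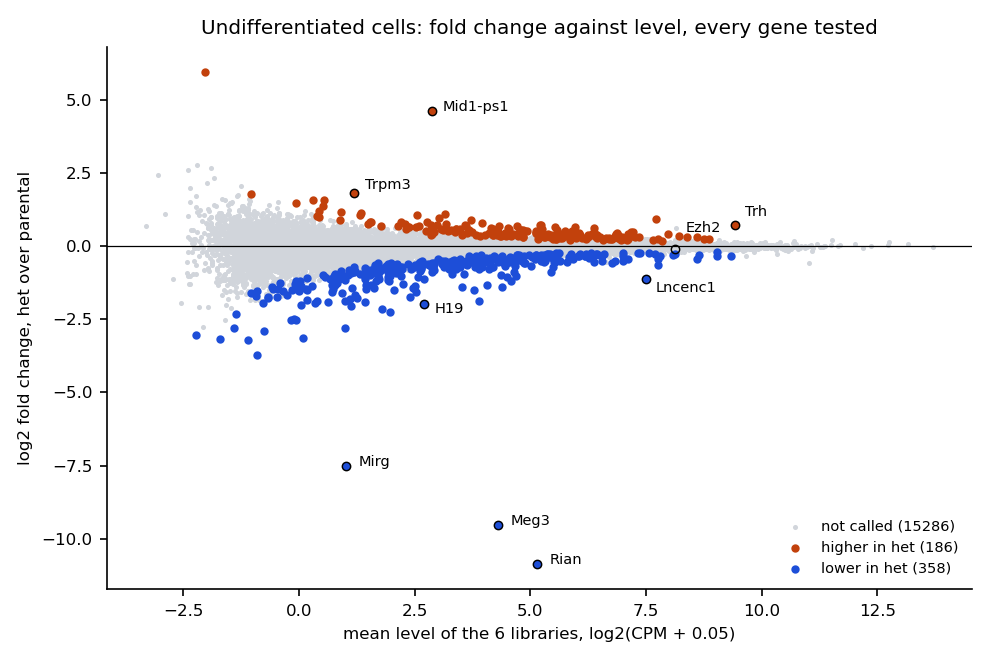
Each point is 1 of the 15830 genes tested in undifferentiated cells; the horizontal axis is the mean level of the 6 libraries as log2(CPM + 0.05) and the vertical axis the log2 fold change of het over parental. Most of the 186 genes higher in het lie close to the zero line, with Mid1-ps1 far above it at 4.60, while Rian, Meg3 and Mirg stand far below it at -10.88, -9.54 and -7.51.

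The largest differences were at the imprinted Dlk1-Dio3 region of chromosome 12. Its maternally expressed long noncoding RNAs Meg3, Rian and Mirg, which also host many small RNAs, were near 0 in het cells. Rian had 0.0512, 0.0472 and 0 CPM in het libraries, against 65.1, 73.9 and 71.8 CPM in parental libraries. Meg3 had 0, 0 and 0.124 CPM in het libraries, against 37.0, 41.3 and 39.4 CPM in parental libraries. Mirg had 0, 0 and 0.0415 CPM in het libraries, against 3.49, 4.22 and 4.18 CPM in parental libraries. The 3 transcripts were thus present in every parental library and all but absent from every het library. As a ratio of summed counts, Rian was 2262-fold lower in het, with 2 counts against 3912 (95% interval 626 to 18680, counting error only). Meg3 was 843-fold lower, with 3 counts against 2187 (288 to 4091), and Mirg 254-fold lower, with 1 count against 220 (45.2 to 10090). Their adjusted p-values were 7.05e-20, 6.93e-14 and 2.1e-06.

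The fall also took in Dio3, a thyroid hormone deiodinase expressed mainly from the paternal chromosome. Dio3 had 0.358, 0.661 and 0.581 CPM in het libraries, against 2.07, 2.18 and 1.77 CPM in parental libraries, a log2 fold change of -1.88 (standard error 0.37, adjusted p = 0.00264). The other 2 paternally expressed genes of the region pointed the same way at very low counts. Dlk1, a Notch-related growth regulator, had 12 counts over the het libraries, against 33 counts over the parental libraries (log2 fold change -1.64, adjusted p = 0.195). Rtl1, a retrotransposon-derived gene needed in the placenta, had 0 counts in het, against 28 counts in parental libraries, and was too low to be tested. Of the 8 genes tested on the list of this region, 4 were called lower and none higher (50%, against 3.44% of all genes tested). This held in the fit of all libraries and with any 1 of the 6 libraries left out. Of the 8, 3 had a positive log2 fold change, up to 0.26. The list includes Begain, which lies before Dlk1 (log2 fold change 0.11). The lines built from het had the same near absence, with means of 0.0317 to 0.155 CPM for Rian and 0 to 0.0982 CPM for Meg3. RefSeq lists 57 microRNA hairpins between the start of Meg3 and the end of Mirg, which poly(A)-selected counts do not measure.

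The promoter of Meg3 is shown because the transcript starting there was near 0 in het. The window runs from 250 bases before to 50 bases after the start in RefSeq (build GRCm38.p6, chr12:109540746-109541045, plus strand), and capitals mark each CG, a pair that reads the same on both strands.
Meg3: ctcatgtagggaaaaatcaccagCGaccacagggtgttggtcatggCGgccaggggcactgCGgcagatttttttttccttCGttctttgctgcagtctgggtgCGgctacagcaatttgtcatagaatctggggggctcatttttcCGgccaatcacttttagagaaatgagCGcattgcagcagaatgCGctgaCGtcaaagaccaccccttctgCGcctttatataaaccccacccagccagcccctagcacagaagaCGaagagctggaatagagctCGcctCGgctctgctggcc
It holds 13 CG, and 43.5% of the 32851 promoters in the RefSeq table hold at least 10. Methylation was not measured.

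Among the 55 other imprinted genes tested, 8 were lower in het and 1 higher (16.4%, against 3.44% of all genes tested). H19, a maternally expressed noncoding RNA that limits growth in mouse embryos, had 2.92, 2.08 and 2.82 CPM in het libraries, against 10.8, 10.4 and 10.03 CPM in parental libraries. Its fall of 1.99 on the log2 scale (standard error 0.21, adjusted p = 3.84e-07) separated the lines with a wide gap. Cdkn1c, a maternally expressed inhibitor of cyclin-dependent kinases, had 2.31, 1.18 and 1.41 CPM in het libraries, against 4.27, 4.74 and 4.29 CPM in parental libraries (log2 fold change -1.45, adjusted p = 0.000356). Igf2, the growth factor gene beside H19, was at 0.178 ± 0.099 CPM in het and 0.469 ± 0.051 CPM in parental cells (SD, n = 3 each) and did not pass edgeR's test (adjusted p = 0.452). Paternally expressed genes also fell. Peg10, a retrotransposon-derived gene needed for the placenta, had 31.6, 34.9 and 35.1 CPM in het libraries, against 52.4, 56.2 and 57.5 CPM in parental libraries (log2 fold change -0.71, adjusted p = 1.56e-06). Sfmbt2, which encodes a Polycomb-related protein, fell by 0.71 (adjusted p = 0.000229), and the maternally expressed Ascl2, a trophoblast transcription factor, by 0.88 (adjusted p = 0.0109); Ascl2 did not pass once het replicate 1 was left out (0.0698).

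The imprinted gene that rose was H13, a signal peptide peptidase, with 47.8, 45.1 and 44.2 CPM in het libraries, against 31.9, 28.9 and 30.8 CPM in parental libraries (log2 fold change 0.58, adjusted p = 0.000191). Mcts2, a paternally expressed retrogene at chr2:152687035-152687946, lies inside H13 at chr2:152669461-152708670 on the same strand. It moved the other way, at 10.6 ± 0.13 CPM in het and 17.3 ± 2.12 CPM in parental cells (SD, n = 3 each; log2 fold change -0.71, edgeR adjusted p = 9.63e-05). The pair overlaps, so how reads within H13 were assigned bears on both values. Mcts2 and Igf2 were chosen after their values were seen. Over the 55 imprinted genes the median log2 fold change was -0.02, against 0.00 for all genes tested.

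Of 23 PRC1 genes tested, 3 were lower and none higher, also with any 1 library left out. Cbx2, a reader of the histone mark, had 25.2, 22.6 and 22.9 CPM in het libraries, against 38.1, 34.4 and 34.0 CPM in parental libraries (log2 fold change -0.59, adjusted p = 0.00199). Bmi1, which encodes a RING partner of PRC1, fell by 0.77 (adjusted p = 0.00714). The median over the 23 genes was 0.04. The summed level of the list was 1782 to 1857 CPM in het and 1760 to 1835 CPM in parental libraries.

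Developmental regulators that Polycomb holds low in stem cells were lower in het more often than higher. Of 97 genes listed, 42 were measured well enough to test, and 11 were lower and 4 higher. The called share was 35.7%, against 3.44% of all genes tested, and the median log2 fold change of the 42 was -0.61. Lhx2, a regulator of eye and forebrain, had 0.205, 0.142 and 0.0415 CPM in het libraries, against 1.01, 0.640 and 1.23 CPM in parental libraries (log2 fold change -2.91, standard error 0.57, adjusted p = 0.00253). Lhx2 was lower in every het library than in any parental library, while 20.5% of all genes tested lacked overlap in either direction. Barx1, a regulator of stomach and jaw, was at 0.0512, 0.189 and 0 CPM in het libraries and 0.413, 0.576 and 0.751 CPM in parental libraries (adjusted p = 0.0189), which did not pass without het replicates 1 (0.0852) or 3 (0.143) and without parental replicates 2 (0.0541) or 3 (0.107). Gata4, a regulator of heart and endoderm, fell by 1.34 (adjusted p = 8.55e-05), and Sox1, an early neural regulator, by 1.12 (adjusted p = 0.000389).

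Apart from Cdkn2a, given below with the cell cycle genes, the lower genes averaged at most 3.39 CPM in het and 5.26 CPM in parental cells, and their number depended on single libraries. The 11 lower genes became 5 without het replicate 3, 6 without parental replicate 1, and 7 without parental replicate 2 or 3. The 4 higher genes stood at higher levels. Bmp4, a signal that supports self-renewal and later mesoderm, had 15.4, 15.3 and 14.2 CPM in het libraries, against 8.86, 9.79 and 8.42 CPM in parental libraries (log2 fold change 0.73, adjusted p = 0.000155). Olig2, a neural regulator, rose by 0.51 (adjusted p = 0.000874), and Eomes, a regulator of early mesoderm and trophoblast, by 0.43 (adjusted p = 0.00357). Sox11, a neural and epiblast regulator, rose by 0.36 (adjusted p = 0.0177), with the call lost in 4 of the 6 fits that left out 1 library (adjusted p 0.0706 to 0.116).

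Hox genes were nearly silent. Of 39, 7 had no count and 9 could be tested. All 9 had a negative log2 fold change (median -0.89), against 7780 of all 15830 genes tested. Hoxa7 averaged 0.266 CPM in het and 0.902 CPM in parental cells, and could pass the filter through its level outside het. The signs and the called share of the 9 are thus a description. The summed level of the list was 11.9 to 13.3 CPM in het and 16.7 to 19.7 CPM in parental libraries. Hoxa7, Hoxd13 and Hoxb9, which pattern the trunk and limbs, were called lower at adjusted p-values of 0.0272, 0.0123 and 0.0351. The called share was 33.3% of the 9, against 3.44% of all genes tested. Hoxd13 had 0.205, 0.236 and 0.332 CPM in het libraries, against 0.965, 1.02 and 0.697 CPM in parental libraries. These 3 calls became 0 without het replicate 1 or 2, and 1 without het replicate 3 or parental replicate 1 or 3.

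**Figure D2:**
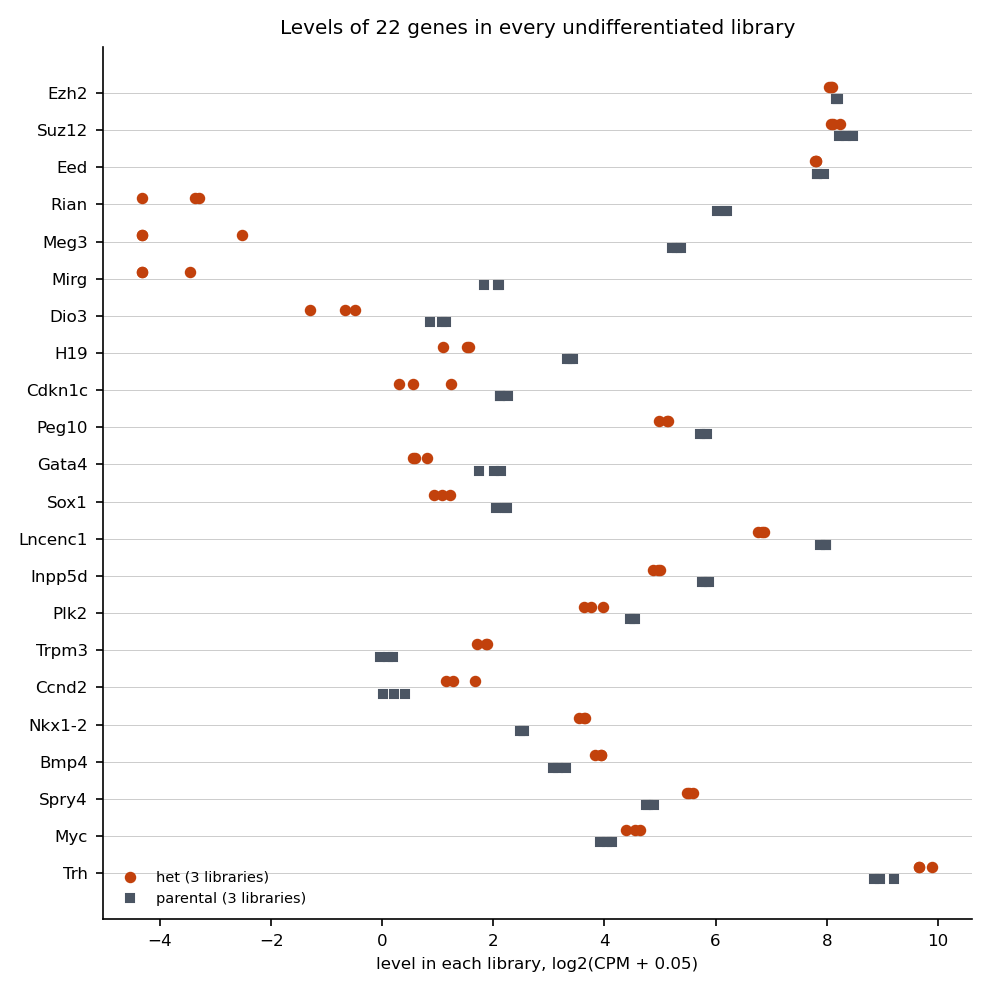
Levels of single genes in each library, as log2(CPM + 0.05) on the horizontal axis, with the 3 het libraries (circles) drawn above the 3 parental libraries (squares) for each gene. The groups are wide apart for Rian, Meg3 and Mirg, separate by smaller steps for genes such as H19, Gata4 and Bmp4, and lie close together for Ezh2, Suz12 and Eed.

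Of 40 core and naive pluripotency genes tested, 2 were higher and 2 lower (10%, against 3.44% of all genes tested). The higher genes became 1 without het replicate 1 or 2 or parental replicate 2 or 3, and the lower genes 1 without het replicate 3 or parental replicate 1. The central factors Pou5f1, Sox2 and Nanog had log2 fold changes of 0.03, 0.12 and 0.08 with adjusted p-values of 0.952, 0.585 and 0.698. Formative and primed epiblast genes, which mark the next stage of the embryo, had 5 of 28 members higher and 1 lower. Zic2, a zinc finger regulator of that stage, had 59.3, 57.8 and 60.4 CPM in het libraries, against 48.5, 42.7 and 41.8 CPM in parental libraries (log2 fold change 0.42, adjusted p = 0.000135). Foxp1 rose by 0.50 (adjusted p = 0.00271) and Sox4 by 0.44 (adjusted p = 0.00442), though not once het replicate 1 was left out (0.0513). The 5 higher genes became 2 without het replicate 1, and 3 without het replicate 3 or parental replicate 1 or 3. Of the LIF-STAT3 target genes, 2 of 16 fell, the PRAME family members Pramel7 and Pramel6, and the median of the list was 0.03. Pramel6 did not pass without het replicate 1, 2 or 3 or parental replicate 3 (adjusted p 0.0505 to 0.099), which left 1 gene. Pramel7, which supports the naive state, had 0.307, 0.283 and 0.207 CPM in het libraries, against 1.24, 1.34 and 2.04 CPM in parental libraries (log2 fold change -2.52, adjusted p = 0.00215).

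Of 18 ERK response genes tested, 4 were higher and none lower (22.2%, against 3.44% of all genes tested). These counts also held with any 1 library left out, and the median log2 fold change was 0.17. Spry4, a feedback inhibitor of receptor tyrosine kinases, had 48.3, 45.0 and 46.0 CPM in het libraries, against 29.6, 27.6 and 26.9 CPM in parental libraries (log2 fold change 0.72, standard error 0.07, adjusted p = 1.2e-07). Myc, a growth regulator, had 24.9, 23.3 and 20.8 CPM in het libraries, against 17.4, 16.4 and 15.1 CPM in parental libraries (log2 fold change 0.49, adjusted p = 0.000296). Dusp6, a phosphatase of ERK, rose by 0.42 (adjusted p = 0.000571). Ccnd1, cyclin D1, rose by 0.31 (adjusted p = 0.00215). The other 14 genes of the list did not pass the test.

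Related signals moved in single genes. Porcn, which acylates Wnt proteins for secretion, had 48.2, 45.1 and 48.0 CPM in het libraries, against 29.9, 25.2 and 29.6 CPM in parental libraries (log2 fold change 0.73, adjusted p = 2.52e-06). Ccnd2, cyclin D2, had 3.12, 2.36 and 2.16 CPM in het libraries, against 1.10, 0.960 and 1.29 CPM in parental libraries (log2 fold change 1.17, adjusted p = 0.00234). Of 21 WNT response genes, 2 were higher and 1 lower, and of 20 BMP and Nodal genes also 2 higher and 1 lower. The called shares were 14.3% and 15%, against 3.44% of all genes tested. The 2 higher BMP and Nodal genes became 1 in each fit that left out 1 library other than het replicate 3, and the 1 lower gene became 2 without het replicate 3. Bmp7, which signals through the same receptors as Bmp4, fell by 0.65 (adjusted p = 0.00369), while Bmp4 rose. Wnt6 fell at a call lost without any 1 of the 6 libraries (adjusted p 0.036 with all of them). Fgfr2, a receptor for fibroblast growth factors listed as a trophoblast marker, was at 0.256, 0.283 and 0.456 CPM in het libraries and 1.06, 0.832 and 0.912 CPM in parental libraries (adjusted p = 0.0327). Its call was lost without het replicate 1 or 2 or any 1 of the parental replicates.

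Trophoblast and endoderm markers were lower in het more often than higher. Of 18 trophoblast markers tested, 5 were lower and 1 higher (median log2 fold change -0.66), and of 19 endoderm markers 4 were lower and 1 higher (median -0.33). The called shares were 33.3% and 26.3%, against 3.44% of all genes tested. Krt18, a keratin of simple epithelia, had 6.30, 8.12 and 6.47 CPM in het libraries, against 10.2, 11.97 and 12.6 CPM in parental libraries (log2 fold change -0.73, adjusted p = 0.00326). Its partner Krt8 fell by 0.52 (adjusted p = 0.0274), a call lost in 5 of the 6 fits that left out 1 library. Sparc, a matrix glycoprotein of primitive endoderm, had 339, 325 and 326 CPM in het libraries, against 462, 429 and 445 CPM in parental libraries (log2 fold change -0.43, adjusted p = 0.000319). Lama1, a laminin chain of the same cells, went the other way, with 158, 182 and 183 CPM in het libraries, against 123, 129 and 125 CPM in parental libraries (log2 fold change 0.47, adjusted p = 0.000247). The 5 lower trophoblast genes became 2 without het replicate 1 and 3 without parental replicate 1. In bulk cultures, fewer cells of a type and less RNA per cell cannot be told apart, and the part of such cells in these values was not tested. The summed level of the trophoblast list was 293 to 300 CPM in het and 321 to 337 CPM in parental libraries, and that of the endoderm list 2470 to 2555 CPM in het and 2472 to 2761 CPM in parental libraries.

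Germline genes mostly lay below the parental level. Of 29 tested, 28 had a negative log2 fold change (median -0.36), against 7780 of all 15830 genes tested. Of the 29, 4 were called lower and none higher (13.8%, against 3.44% of all genes tested). Fkbp6, needed for the silencing of transposons in the male germline, had 0.871, 0.897 and 0.746 CPM in het libraries, against 3.35, 3.58 and 3.43 CPM in parental libraries (log2 fold change -2.04, adjusted p = 4.03e-05). Sohlh2, Meioc and Tuba3a were the other 3, at log2 fold changes of -0.46, -0.78 and -0.67, and each lost its call in 4 or 5 of the fits that left out 1 library. The 4 calls became 1 without het replicate 1 and 2 without any other single library. The summed level of the list was 159 to 165 CPM in het and 194 to 205 CPM in parental libraries.

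Of 24 genes tested on a list of genes activated by p53, 6 were lower and none higher (25%, against 3.44% of all genes tested). The list is a selection. Gadd45a, a stress gene that is not on it, rose by 0.62 (adjusted p = 0.000486). Of the 24, 20 had a negative log2 fold change (median -0.26), against 7780 of all 15830 genes tested. Plk2, a kinase induced by p53, had 13.4, 15.7 and 12.4 CPM in het libraries, against 21.8, 23.5 and 23.1 CPM in parental libraries (log2 fold change -0.72, standard error 0.09, adjusted p = 1.74e-05). Cdkn1a, the inhibitor p21, had 118, 112 and 122 CPM in het libraries, against 170, 151 and 157 CPM in parental libraries (log2 fold change -0.44, adjusted p = 0.00146). Btg2, an antiproliferative gene, fell by 0.50 (adjusted p = 0.000577). Ddit4, which lowers mTOR signalling, fell by 0.54 (adjusted p = 0.043), a call lost in each of the 6 fits that left out 1 library (adjusted p 0.0518 to 0.177). Between 4 and 5 genes of the list were called lower when 1 library was left out, and up to 13 under the other settings.

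Cell cycle inhibitors and cyclins D split. Cdkn2a, whose products hold back CDK4 and protect p53, had 13.3, 13.2 and 11.3 CPM in het libraries, against 18.4, 15.6 and 18.2 CPM in parental libraries (adjusted p = 0.0102), which did not pass without het replicate 3 (0.0972) and without parental replicates 1 (0.0641) or 3 (0.067). With Cdkn1a and Cdkn1c, 3 of the 15 genes of this list were lower, and Ccnd1 and Ccnd2 were the 2 higher ones. The called share was 33.3%, against 3.44% of all genes tested. Among 30 genes of the cell cycle machinery none passed the test, and 26 of them had a negative log2 fold change (median -0.04). The list of 44 nuclear oxidative phosphorylation genes, that of 24 cholesterol synthesis genes and that of 19 clustered protocadherins also had no call, with medians of -0.02, 0.02 and -0.06. Of 17 metallothionein and oxidative stress genes, 3 were lower (17.65%, against 3.44% of all genes tested). The 3 became 1 without het replicate 1 or 3 or parental replicate 1 or 3. Among them was Nqo1, a quinone reductase (log2 fold change -0.36, adjusted p = 0.00665). Gpt2, an alanine transaminase and target of the integrated stress response, fell by 0.43 (adjusted p = 0.000106). It was the 1 call among 30 genes of that list (3.33%, against 3.44% of all genes tested).

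**Figure D3:**
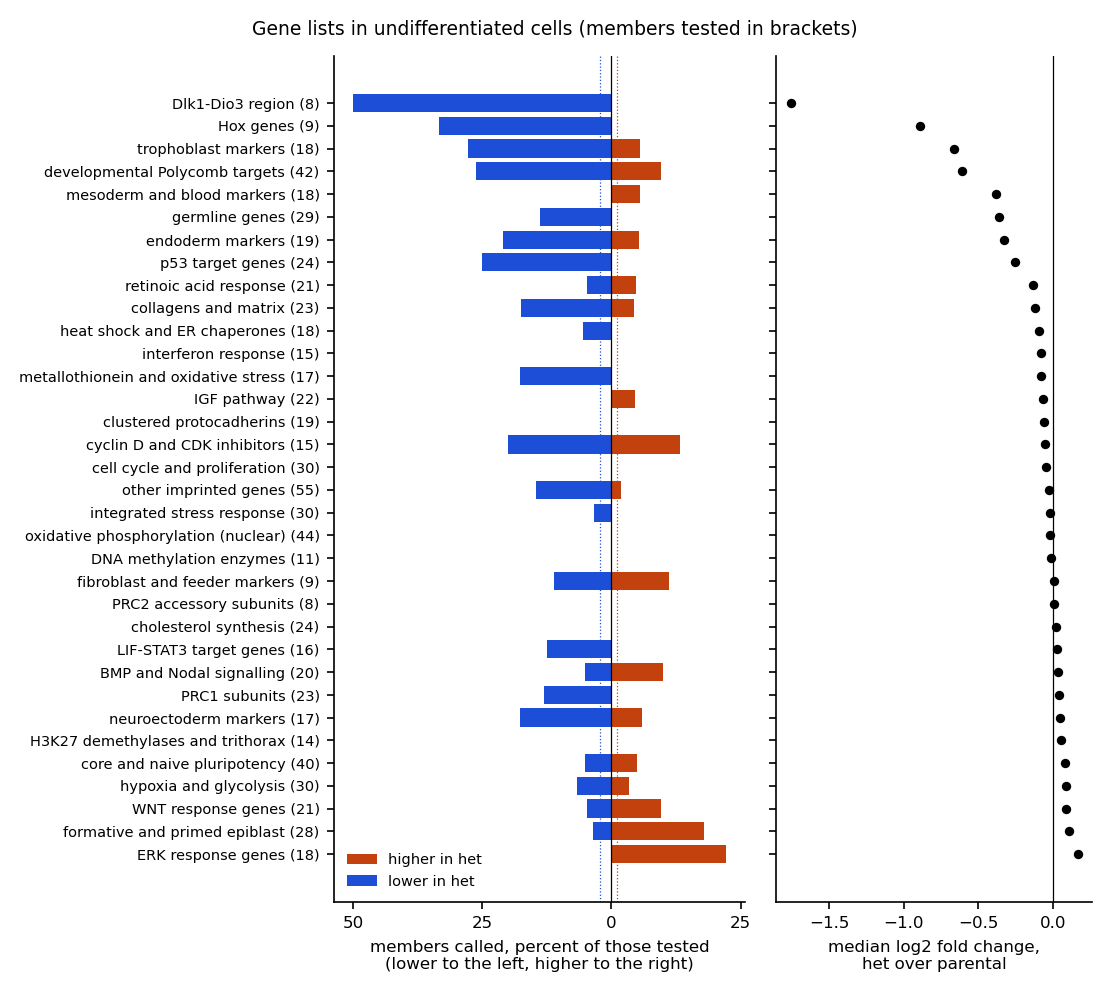
For each gene list with at least 8 members tested (number in brackets), the left panel shows the percent of members called lower in het (bars to the left) and higher in het (bars to the right), with dotted lines at the 2.26% and 1.17% of all genes tested, and the right panel the median log2 fold change of het over parental. Lists run by their median; the Dlk1-Dio3 region is lowest and the ERK response genes highest.

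Outside these lists, several abundant stem cell transcripts were lower. Lncenc1, a long noncoding RNA of naive stem cells, had 108, 114 and 116 CPM in het libraries, against 235, 252 and 255 CPM in parental libraries (log2 fold change -1.13, standard error 0.07, adjusted p = 5.91e-12). Inpp5d, the lipid phosphatase SHIP1, had 29.4, 32.0 and 31.02 CPM in het libraries, against 56.6, 53.6 and 59.2 CPM in parental libraries (log2 fold change -0.87, adjusted p = 1.36e-08). Both were well below the parental range. Among less abundant genes, Zfp951, a zinc finger gene, fell by 2.79 (adjusted p = 2.31e-06), and Fmr1nb, an X-linked gene of the testis, by 2.27 (adjusted p = 2.37e-07). Smtnl1, a muscle protein, fell by 2.14 (adjusted p = 1.5e-05), and Serpina3m, a protease inhibitor, by 3.15 (adjusted p = 1.98e-05). Rpl39l, a ribosomal protein of the male germline, fell by 2.52 (adjusted p = 0.0011), Obox6, an oocyte homeobox gene, by 2.49 (adjusted p = 0.00185), and Pnma5 on the X chromosome by 1.93 (adjusted p = 0.00125). Rpl39l, the Obox genes and Pramel7 belong to families with close copies, among which reads can be split.

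The largest rise among genes above 1 CPM was that of Mid1-ps1, a pseudogene on the Y chromosome with near-identical copies, with 11.5, 15.1 and 15.4 CPM in het libraries, against 0.322, 0.896 and 0.590 CPM in parental libraries (log2 fold change 4.60, adjusted p = 2.21e-13). Trpm3, a cation channel, had 3.23, 3.59 and 3.65 CPM in het libraries, against 0.919, 1.09 and 1.02 CPM in parental libraries, a 3.47-fold difference (log2 fold change 1.80, standard error 0.24, adjusted p = 2.35e-05). Bcl11a, a repressor of fetal globin in blood, had 1.64, 1.42 and 2.28 CPM in het libraries, against 0.643, 0.640 and 0.536 CPM in parental libraries (log2 fold change 1.56, adjusted p = 0.000371). Nkx1-2, a homeobox gene of the caudal epiblast, had 12.6, 11.5 and 12.4 CPM in het libraries, against 5.83, 5.76 and 5.52 CPM in parental libraries (log2 fold change 1.09, adjusted p = 1.46e-06). The absence of overlap between the lines was a condition for naming these 4 genes. Ikzf1, a lymphoid zinc finger factor, rose by 1.05 (adjusted p = 0.00176), and Insl3, a peptide hormone, was 2.6-fold higher (adjusted p = 0.00412). Halr1, a noncoding RNA beside the Hoxa cluster, rose by 0.87 (adjusted p = 3.78e-07). Lrrn2, a membrane protein of neurons, rose by 1.12 (adjusted p = 0.00437), though not once het replicate 2 was left out (0.0561).

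The most abundant gene that rose at least 1.5-fold was Trh, the precursor of thyrotropin-releasing hormone, with 957, 804 and 804 CPM in het libraries, against 590, 494 and 462 CPM in parental libraries (log2 fold change 0.73, adjusted p = 0.00775). Its call was lost without parental replicate 3 (0.0549). Ttk, a kinase of the spindle checkpoint, had 102, 105 and 96.0 CPM in het libraries, against 60.0, 67.2 and 70.3 CPM in parental libraries (log2 fold change 0.62, adjusted p = 2.71e-05). Map1b, a microtubule protein of neurons, rose by 0.63 (adjusted p = 5.74e-05), and Cotl1, an actin-binding protein, by 0.64 (adjusted p = 0.00199). Vim, vimentin, rose by 0.46 (adjusted p = 5.9e-05), while Thy1, another gene of the fibroblast list, was at 0.717, 1.04 and 1.20 CPM in het libraries and 2.07, 3.07 and 1.88 CPM in parental libraries. The call of Thy1 (adjusted p = 0.0151) was lost without het replicate 1 (0.0967) or 2 (0.0536) and without parental replicate 2 (0.119).

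Lower genes gathered on the distal part of chromosome 4. Between 144 and 148 Mb, 14 of 57 genes tested were lower and none higher (24.6%, against 3.44% of all genes tested). Of the 57, 48 had a negative log2 fold change (median -0.36), against 7780 of all 15830 genes tested. The window was chosen after its values were seen, because its part from 146 to 148 Mb held 10 calls among 40 genes tested, the most of the windows of 2 Mb on any chromosome, so the counts are a description. The window holds many KRAB zinc finger genes, a family that silences transposons and whose members lie in clusters of near-identical copies. Of 19 zinc finger genes tested in the window, 8 were called lower and 18 had a negative value (median -0.50). Among the 328 Zfp genes tested elsewhere, 8 were lower and 2 higher (median -0.01). The 14 called genes summed to 119, 117 and 120 CPM in het libraries, against 210, 266 and 231 CPM in parental libraries. They numbered 11 to 14 when 1 library was left out and 14 to 20 under the other settings, with none higher.

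Zfp981 had 6.96, 5.90 and 5.89 CPM in het libraries, against 19.8, 25.3 and 24.7 CPM in parental libraries (log2 fold change -1.90, adjusted p = 1.36e-08). Zfp985 had 7.73, 6.94 and 6.55 CPM in het libraries, against 18.8, 21.3 and 20.4 CPM in parental libraries (log2 fold change -1.51, adjusted p = 3.56e-05). Rex2 had 1.13, 1.32 and 0.871 CPM in het libraries, against 4.55, 4.61 and 3.49 CPM in parental libraries (log2 fold change -1.93, adjusted p = 3.08e-05). Zfp992 and Zfp978 fell by 1.40 and 1.05 (adjusted p = 1.56e-06 and 6.89e-06). Zfp979, between the same bounds, did not pass the test, with 104.5, 92.0 and 98.0 CPM in het libraries, against 92.6, 121 and 109 CPM in parental libraries (log2 fold change -0.13, adjusted p = 0.869). Reads of such copies can be assigned to the wrong member, so the values of single genes are uncertain. Except for Rex2, the genes of this window were singled out after their values were seen.

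The promoters of Zfp981, Zfp985, Rex2 and Zfp979 are shown because 3 of these copies were lower and 1 was not. They are RefSeq windows of 300 bases on build GRCm38.p6, at chr4:146514670-146514969 (plus strand), chr4:147553027-147553326 (plus), chr4:147021600-147021899 (plus) and chr4:147642459-147642758 (minus), with each CG in capitals.
Zfp981: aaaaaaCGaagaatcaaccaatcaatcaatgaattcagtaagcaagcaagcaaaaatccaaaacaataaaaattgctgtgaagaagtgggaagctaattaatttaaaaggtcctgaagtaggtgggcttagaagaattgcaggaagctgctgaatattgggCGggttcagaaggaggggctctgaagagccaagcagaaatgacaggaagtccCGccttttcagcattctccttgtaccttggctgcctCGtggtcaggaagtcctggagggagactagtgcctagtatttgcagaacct
Zfp985: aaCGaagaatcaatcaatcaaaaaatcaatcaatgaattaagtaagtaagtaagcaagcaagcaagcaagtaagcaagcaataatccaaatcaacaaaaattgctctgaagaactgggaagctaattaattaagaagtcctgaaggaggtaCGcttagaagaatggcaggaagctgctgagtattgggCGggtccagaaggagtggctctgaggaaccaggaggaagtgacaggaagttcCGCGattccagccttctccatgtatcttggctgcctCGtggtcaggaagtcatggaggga
Rex2: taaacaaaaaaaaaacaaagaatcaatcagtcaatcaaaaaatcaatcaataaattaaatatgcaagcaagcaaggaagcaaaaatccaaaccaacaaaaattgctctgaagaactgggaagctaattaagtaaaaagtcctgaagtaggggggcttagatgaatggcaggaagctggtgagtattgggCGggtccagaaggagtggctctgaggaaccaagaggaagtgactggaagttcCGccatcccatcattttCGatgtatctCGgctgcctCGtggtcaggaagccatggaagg
Zfp979: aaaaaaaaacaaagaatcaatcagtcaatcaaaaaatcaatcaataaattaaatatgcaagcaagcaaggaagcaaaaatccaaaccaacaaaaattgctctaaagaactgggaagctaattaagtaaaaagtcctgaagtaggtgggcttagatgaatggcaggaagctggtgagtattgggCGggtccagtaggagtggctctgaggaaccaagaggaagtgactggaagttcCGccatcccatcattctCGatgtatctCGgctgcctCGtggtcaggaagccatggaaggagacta
Aligned over their whole length, Rex2 and Zfp979 shared 290 of 300 bases, although 1 was called lower and the other was not. The other pairs among the 4 shared 237 to 256 bases. They hold 4 to 6 CG, and 47.9% of all promoters in the table hold at most 6. The window of Zfp981 lies at a RefSeq start inside the counted gene, which begins at chr4:146502027.

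Chromosome 6, which carries Ezh2 at chr6:47530139-47595341, had a higher median than the other autosomes and X. Its 773 tested genes had a median log2 fold change of 0.08, while the medians of chromosomes 1 to 19 and X without chromosome 6 lay between -0.02 and 0.02. Of these 773 genes, 26 were higher (3.36%) and 12 lower, against 1.06% higher among the genes of all other chromosomes together. Chromosome 18 had a share close to it, with 12 of 396 genes higher (3.03%) and 11 lower, at a median of 0.00. The shift was not local to Ezh2. Each of the 15 windows of 10 Mb along the chromosome had a positive median, from 0.03 in the window that holds Ezh2 to 0.17 between 20 and 30 Mb. Among the called genes of chromosome 6 were Trh, Ccnd2, Halr1 and Gadd45a, which rose, and Peg10, which fell. After ATRA the median of chromosome 6 was 0.09, again above chromosomes 1 to 19 and X without chromosome 6 (-0.03 to 0.03), from libraries that share none with the undifferentiated comparison. Chromosome copy number was not measured.

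**Figure D4:**
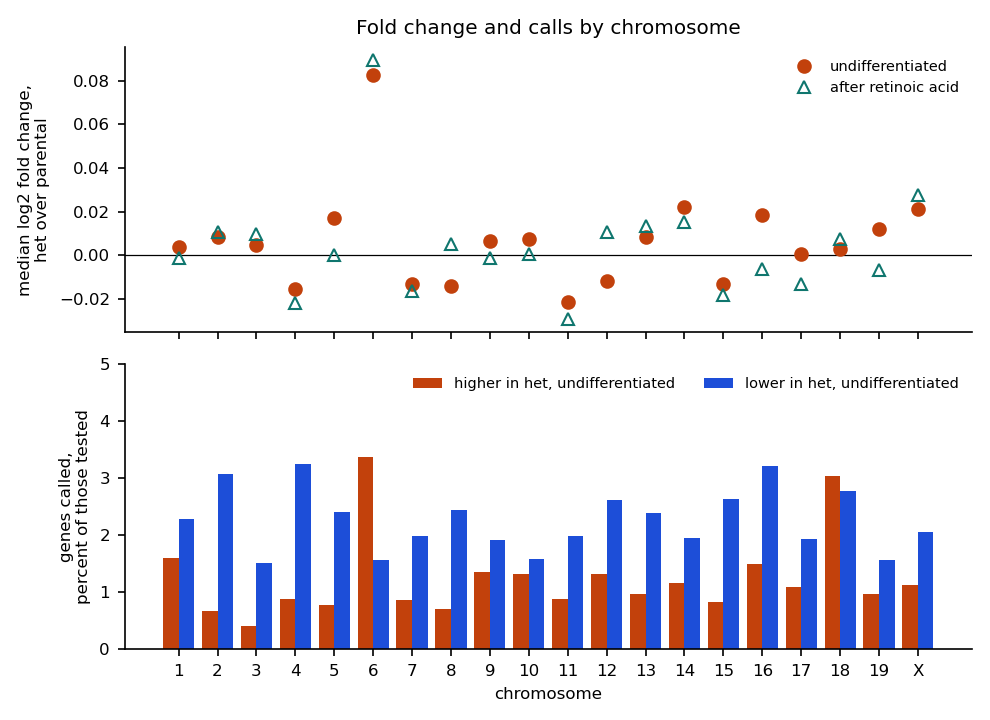
The upper panel gives the median log2 fold change of het over parental for each chromosome in undifferentiated cells (circles) and after retinoic acid (triangles), and the lower panel the percent of tested genes called higher or lower in het in undifferentiated cells. Chromosome 6 stands at 0.08 and 0.09, and its share of higher genes is 3.36%.

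The same comparison after ATRA, in 6 other libraries, tested how far the differences between the lines depended on the state of the cells. There, 1064 of 17030 genes tested differed (6.25%), 374 higher in het (2.2%) and 690 lower (4.05%). Of the 544 genes called in undifferentiated cells, 241 were also called after ATRA (44.3% of the undifferentiated calls and 22.7% of the ATRA calls). Of these 241 genes, 237 had the same direction, 179 lower and 58 higher. Among the 531 genes that could be tested in both states, 474 kept the sign of their fold change. The near absence of Rian, Meg3 and Mirg was found in both states, as was the fall of Lncenc1 (log2 fold change after ATRA -1.20), Inpp5d (-0.98) and Zfp951 (-3.01) and the rise of Ttk (0.80), Map1b (0.58) and H13 (0.58).

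A test of the difference itself found 129 of 17683 genes whose change depended on state (0.73%), of which 49 were called in undifferentiated cells. Sox1 fell in undifferentiated het cells and rose after ATRA (log2 fold change 0.32, adjusted p = 0.0377), a difference of -1.45 between the states (adjusted p = 4.38e-05). Gata4, at -1.34 in undifferentiated cells, stood at -0.02 after ATRA (difference -1.32, adjusted p = 0.000205). Peg10, at -0.71, stood at -0.08 after ATRA (difference -0.63, adjusted p = 7.1e-05). Of the 4 ERK response genes that rose, Spry4 and Myc passed this test. Spry4 was at -0.07 after ATRA (difference 0.79, adjusted p = 1.32e-06) and Myc at 0.00 (difference 0.49, adjusted p = 0.00153). Bmp4 was at -0.09 after ATRA (difference 0.82, adjusted p = 0.00886) and Trpm3 at 0.01 (difference 1.78, adjusted p = 0.0182). Jam2, a junction protein, differed the other way, with -0.27 in undifferentiated cells and -1.37 after ATRA (difference 1.10, adjusted p = 4.25e-07). Genes called in both states in opposite directions were 4, namely Sox1, Fgfr2, Gadd45a and the predicted gene AC131065.2, the last of them named after its values were seen.

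**Figure D5:**
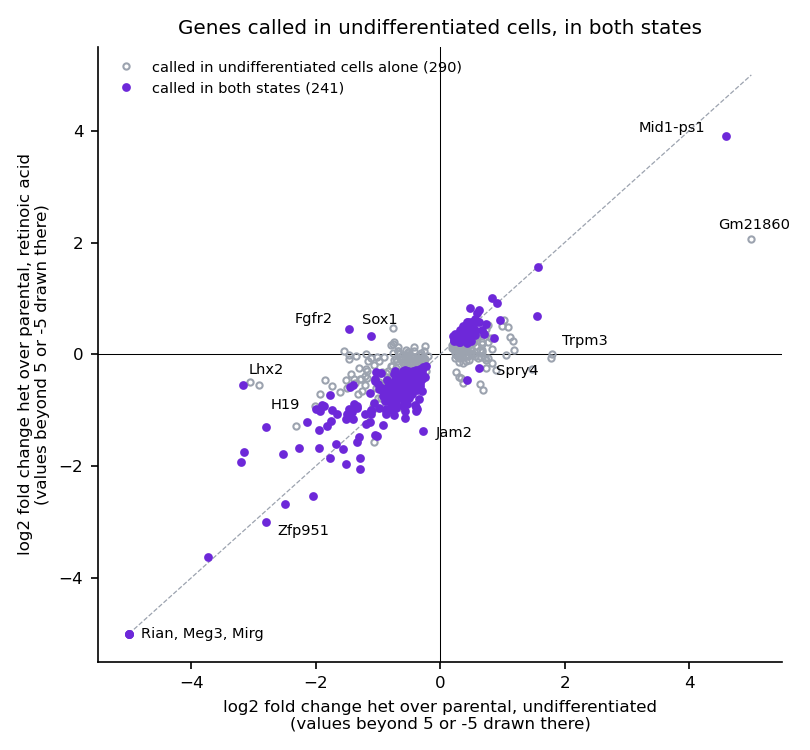
Each point is 1 of the 531 genes called in undifferentiated cells and tested after ATRA, with the log2 fold change of het over parental in undifferentiated cells on the horizontal axis and after ATRA on the vertical axis; values of more than 5 in size are drawn at that limit. The 241 genes called in both states (filled) spread around the dashed line of equal change, apart from 4 in the quadrants of opposite sign such as Sox1 and Fgfr2.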

How the data were processed

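Poly(A)-selected RNA of undifferentiated and ATRA-treated cells was sequenced, and the authors deposited whole-number counts per gene in 1 table. The tools named in the submitters' processing notes were featureCounts 1.6.4, STAR 2.7.3a, DESeq2 1.38.3 and cutadapt 3.2, with build mm10. The strand setting of the counting was not given in the sources used here. Of 54 columns, 48 matched a label and 6 were not used.

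The counts were tested with edgeR 4.0.16 (quasi-likelihood, robust, TMM, low counts removed by filterByExpr; R 4.3.3) with 1 mean for each of 8 lines, over the 24 undifferentiated or the 24 ATRA libraries, and over all 48 for the difference between states. P-values were adjusted by Benjamini-Hochberg over all genes tested, with a threshold of 0.05, and 3 comparisons were made. Levels are TMM-normalised CPM computed from the deposited counts. An exact permutation test of 3 against 3 libraries cannot go below 0.1, so none was used to call genes. Such tests were run on library values and summed lists, and their p-values are not reported here. Ratio intervals are exact 95% intervals from the summed counts and cover counting error only. Replicates differed by more than sampling noise (chi-square per degree of freedom 4.56 to 7.51). Steps were tested on simulated data. The undifferentiated fit recovered 61 of 100 genes changed 1.5-fold and 69 of 100 changed 2-fold. The fit of the difference between states recovered 30 and 52 of 100. A gene that did not pass may therefore still differ.

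Genes were named by rule: the 15 largest changes in each direction above 1 CPM without overlap, the 5 most abundant changed at least 1.5-fold, up to 4 called members a direction of each of 36 lists, core PRC2, Dlk1-Dio3 and pluripotency genes, and 4 a direction for the difference between states. Not all of these are described, and some are not reported here. The members and lists were chosen with earlier results of these data known. Alternatives were RLE normalisation, DESeq2 1.42.0, no filter, the 6 libraries alone, a GC correction, a replicate block and leaving out each library.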

Additional observations from a re-analysis of the deposited data

Results flagged for a closer look

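In 20 genes named in the text or in the chromosome 4 window, the log2 fold change of het over parental differed between undifferentiated cells and ATRA-treated cells by edgeR's test of the difference, adjusted over all genes. The difference is undifferentiated minus ATRA.

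In several genes the log2 fold change of het over parental was higher in undifferentiated cells than after ATRA. Spry4 had a difference of 0.79, Myc of 0.49, Bmp4 of 0.82 and Trpm3 of 1.78. Ikzf1, at 1.05 in undifferentiated cells and -0.01 after ATRA, had a difference of 1.06 (adjusted p = 0.0474). Porcn, at 0.73 and -0.25, had a difference of 0.98 (adjusted p = 1.98e-05). Platr22, a noncoding RNA of stem cells, at 0.90 and -0.27, had one of 1.17 (adjusted p = 0.00108), and Tmem241, at 0.83 and -0.16, one of 0.98 (adjusted p = 0.0288). Halr1 stood at 0.87 and 0.29, a difference of 0.58 (adjusted p = 0.00615).

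Among genes lower in undifferentiated het cells, Peg10 had a difference of -0.63, Gata4 of -1.32 and Sox1 of -1.45. Ccn2, a matrix protein induced by YAP, at -0.68 and 0.07, had one of -0.75 (adjusted p = 0.000155). Fgfr2, at -1.46 and 0.45, had one of -1.92 (adjusted p = 0.00108), and Lhx2, at -2.91 and -0.54, one of -2.38 (adjusted p = 0.0439). H19, at -1.99 and -0.98, was lower in both states, with a difference of -1.01 (adjusted p = 0.0183). Zfp981, at -1.90 and -0.91, had a difference of -0.99 (adjusted p = 0.0116), and Zfp992, at -1.40 and -0.54, one of -0.86 (adjusted p = 0.0121).

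Gadd45a, a stress gene, stood at 0.62 in undifferentiated cells and -0.25 after ATRA, a difference of 0.86 (adjusted p = 4.74e-05). Jam2 had a difference of 1.10, with the larger fall after ATRA.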

How the results depend on the processing

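The 544 calls in undifferentiated cells became 845 when fitted on the 6 libraries, 992 under a GC correction and 1126 when a replicate block was added to it. Of the 544, 535 were called in the same direction with RLE normalisation, 527 with DESeq2, 432 without the filter and 539 with the GC correction. After ATRA the 1064 calls became 1730 under the GC correction and 2044 when the block was added. The 129 differences between states became 197 when fitted on het and parental libraries, 259 under the GC correction and 323 when the block was added. With 1 library left out, the counts ranged from 324 to 376 in undifferentiated cells, from 632 to 841 after ATRA (632 without ATRA het replicate 1) and from 73 to 107 for the difference between states (73 without ATRA het replicate 1, 77 without undifferentiated het replicate 2, 80 without ATRA parental replicate 3 and 84 without undifferentiated het replicate 3). The chromosome 6 median ranged from 0.069 to 0.088, the lowest without het replicate 1. The replicate numbers did not pair the libraries (correlations of deviations 0.134, -0.139 and 0.085), and the replicate block gave 604, 1493 and 177 calls in the 3 comparisons. Of 121 called genes chosen by the naming rule, 80 were called under every alternative and 41 lost the call when 1 library was left out, 10 of them also under another setting. No called gene among them changed sign. Pou5f1, not called, ranged from -0.029 to 0.105 with 1 library left out, and was negative without het replicate 1 (-0.018) or parental replicate 3. Suz12 passed the test with the GC correction, and Rbbp4 with the block and the GC correction (adjusted p = 0.043). The cause of these shifts was not tested. Low counts limit the genes under 1 CPM.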

Other observations

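Only 4 genes annotated on the Y chromosome passed the filter on low counts, and all 4 were called higher in het, against 1.17% of all genes tested. They lie close together, so they do not stand for the whole chromosome. Besides Mid1-ps1, Gm47283 had 232, 282 and 310 CPM in het libraries, against 151, 137 and 148 CPM in parental libraries (log2 fold change 0.92, edgeR adjusted p = 1.11e-06). Gm21742 averaged 2.13 ± 0.068 CPM in het and 0.702 ± 0.175 CPM in parental cells (SD, n = 3 each; log2 fold change 1.57, edgeR adjusted p = 0.000202). Gm21860 had 25 counts over the het libraries and 0 over the parental libraries. All 4 genes tested there lie between 90753057 and 90844040 and have near-identical copies, so that their reads can be split among them, and apart from Mid1-ps1 they were chosen after their values were seen.

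Between 84 and 86 Mb of chromosome 2, 4 of 20 genes tested were lower and none higher, also chosen after the values were seen. The 4 lower genes on chromosome 2 were Smtnl1 at a log2 fold change of -2.14, Ube2l6 at -1.40, Slc43a3 at -1.06 and Serping1 at -0.93.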
